A study of Homo sapiens with 2 samples.

Results

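The genes that copy DNA, and the E2F transcription factors, were compared between 2 RNA-seq libraries of C4-2B cells. C4-2B is a castration-resistant subline of the human prostate cancer line LNCaP. The members were chosen by gene symbol, with earlier results of these data known: the minichromosome maintenance genes MCM2 to MCM10, the origin recognition genes ORC1 to ORC6, the GINS, RFC, polymerase alpha, delta and epsilon, primase, RPA, ribonucleotide reductase and topoisomerase II genes, E2F1 to E2F8, and PCNA, CDC6, CDT1, CDC45, GMNN, FEN1, LIG1 and TK1. The rule found 58 genes among the 25343 rows of the deposited table. The Con library was made from enzalutamide-sensitive C4-2B cells grown in medium with 10% serum and DMSO (n = 1), and the ENZR library from resistant C4-2B cells grown beside them in the same medium with 20 µM of enzalutamide, an antiandrogen (n = 1). The titles of both samples end in shC, an abbreviation left unexplained by the labels. The ENZR cells were both resistant and exposed to the drug, so resistance and exposure cannot be told apart.

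A eukaryotic cell prepares each origin of replication in G1, when the origin recognition complex, CDC6 and CDT1 load the MCM2-7 helicase onto DNA. In S phase CDC45 and the GINS complex join the helicase and switch it on, polymerase alpha with primase starts each strand, and polymerases epsilon and delta extend the strands with the sliding clamp PCNA. E2F factors bind the promoters of many of these genes. They are held in check by the retinoblastoma family of proteins, which cyclin-dependent kinases inactivate as cells enter the cycle.

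The libraries held 21024484 reads in genes for Con and 23479051 for ENZR, and the 58 members took 0.662% and 0.684% of them. Each member had between 171 and 9779 reads in each library, and all 58 reached the mean of 1 CPM (reads per 1000000 after the authors' TMM scaling) that was asked of a gene, as did 13803 genes in all. Each ratio below is ENZR over Con in CPM, or Con over ENZR where a gene is called lower. The range beside it is the exact 95% Clopper-Pearson interval of the read counts, which covers counting error only and not the spread between cultures, which is unknown with 1 library a group. All 9 luminal prostate markers on a fixed list had reads in both libraries, among them KRT8 at 268 and 340 CPM and HOXB13 at 442 and 337 CPM, while the androgen-induced KLK3 stood at 1428 and 3.72 CPM. The 3 leukocyte markers summed to 0.490 CPM in Con and 0.202 CPM in ENZR, with CD3E at 0 reads in both. The 3 endothelial markers summed to 10.48 and 4.57 CPM. VWF had 182 reads in Con and 72 in ENZR, or 8.92 and 2.91 CPM, and was 3.06-fold lower (2.32 to 4.08). PECAM1 had 32 and 41 reads, and CDH5 had 0 in both. The 5 fibroblast markers summed to 18.4 and 45.8 CPM, nearly all from COL1A1, with LUM at 0 reads in Con and 32 in ENZR, COL3A1 at 5 and 0, DCN at 0 and 2 and COL1A2 at 0 in both libraries. The part of these markers in the results was not tested. In bulk RNA, fewer cells in S phase and less RNA per cell cannot be told apart.

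The replication genes as a group differed little between the libraries. None of the 58 was 2-fold higher or lower, by the log2 ratio with a pseudocount of 1 CPM, whereas among all 13803 genes 6.69% were 2-fold higher and 4.64% were 2-fold lower. At 1.5-fold, 1 member was higher (ORC3) and 3 were lower (RFC3, POLE4 and GINS3), where 13.6% of all genes were higher and 12.9% lower. The other 54 members, 93.1% of them, lay within 1.5-fold, beside 73.5% of all genes and 76% of the 11243 genes whose mean reached 5 CPM. The SD of the log2 ratio was 0.36 over the members and 0.78 over all genes. The median log2 ratio of the members was -0.06, beside -0.01 for all genes, and both medians turned positive (0.06 and 0.10) without the authors' TMM factors.

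The count past 1.5-fold rests on the scaling. Besides the deposited TMM scaling, 3 others were tried: CPM without the TMM factors, equal upper quartiles, and totals that leave out the 10 most abundant genes. Without the TMM factors, every ratio becomes 1.08 times as large, the members past 1.5-fold become 6 higher (ORC3, ORC4, E2F2, POLA2, RPA2 and RPA3) and 2 lower (RFC3 and POLE4), and all genes become 17.4% higher and 9.54% lower. The share of members within 1.5-fold was then 86.2%, beside 73% of all genes. In the deposited scaling 24 members had a log2 ratio above 0 and 34 below 0, and without the factors 31 and 27. Of all 13803 genes, 6827 lay above 0 and 6976 below 0 in the deposited scaling. Their split without the factors is not given here, but their median log2 ratio rose as well, from -0.01 to 0.10. The turn is thus not a trait of the members. The genes whose direction turns are MCM7, GINS1, POLA1, POLE2, RFC4, FEN1 and RPA1, each within 1.08-fold of equality.

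**Figure D1:**
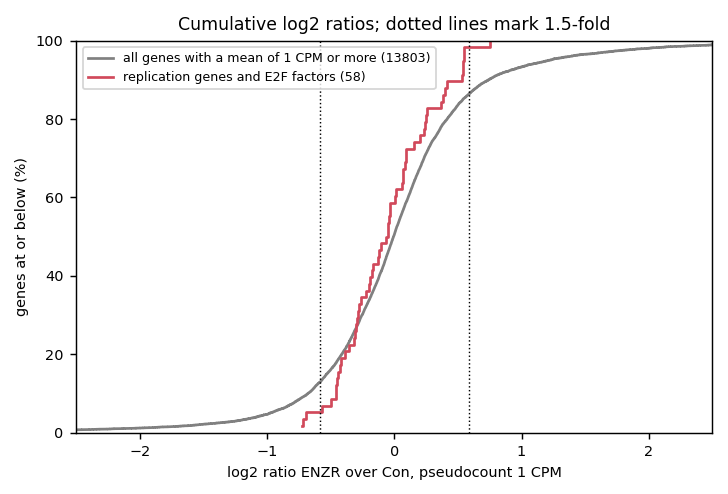
Cumulative share of genes (percent, vertical axis) against the log2 ratio of ENZR over Con with a pseudocount of 1 CPM (horizontal axis), for the 58 replication genes and E2F factors and for all 13803 genes. The curve of the replication genes is the steeper one, with 54 of 58 genes between the dotted lines at 1.5-fold; genes beyond the ends of the axis are not drawn.

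The counting interval lay above 1 for 17 members (29.3%), below 1 for 28 (48.3%) and held 1 for 13, where it lay above 1 for 34.6% of all genes and below 1 for 36.6%. It was clear of 1 for 77.6% of the members and 71.2% of all genes, so the members are close to the background in this respect. Without the TMM factors the balance turned: the interval lay above 1 for 27 members and below 1 for 21, beside 44.2% and 28.7% of all genes. In that setting MCM7, MCM9, MCM10, GINS1, PRIM1, PRIM2, RFC2, FEN1, RPA1 and E2F6 joined those above 1. The intervals of ORC2, POLA1, POLD3, RFC1, E2F1 and E2F8, below 1 in the deposited scaling, then held 1. Such an interval compares 2 libraries and not 2 conditions.

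The 4 genes past 1.5-fold serve 4 different steps of replication. ORC3, a subunit of the origin recognition complex, had 196 reads in Con and 416 in ENZR, or 9.60 and 16.8 CPM, a ratio of 1.75 (1.47 to 2.09). RFC3, a subunit of the clamp loader that places PCNA on DNA, had 3300 and 2411 reads, or 162 and 97.5 CPM, and was 1.66-fold lower (1.57 to 1.75). POLE4, a small histone-fold subunit of polymerase epsilon, had 877 and 635 reads, or 43.0 and 25.7 CPM, and was 1.67-fold lower (1.51 to 1.86). GINS3, one of the 4 subunits of the GINS ring, had 636 and 467 reads, or 31.2 and 18.9 CPM, and was 1.65-fold lower (1.46 to 1.86). All 4 intervals stay clear of 1. No other member reached 1.5-fold. The nearest were ORC4, at a log2 ratio of 0.55, and GMNN at -0.57.

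The promoters of these 4 genes are shown because the gene with the highest ratio and the genes with the 2 lowest log2 ratios carry the same E2F motif. Each line gives the 250 bases just before the RefSeq start of the gene, 5′ to 3′ on the strand of the gene, in the build GRCh38.p14: ORC3 at chr6:87589885-87590134, RFC3 at chr13:33817899-33818148, POLE4 at chr2:74958393-74958642 and GINS3 at chr16:58392221-58392470, all on the + strand. Capitals mark matches to an E2F motif (TTTCCCGC, TTTCGCGC, TTTGCCGC or TTTGGCGC) or to CCAAT, on either strand.
ORC3: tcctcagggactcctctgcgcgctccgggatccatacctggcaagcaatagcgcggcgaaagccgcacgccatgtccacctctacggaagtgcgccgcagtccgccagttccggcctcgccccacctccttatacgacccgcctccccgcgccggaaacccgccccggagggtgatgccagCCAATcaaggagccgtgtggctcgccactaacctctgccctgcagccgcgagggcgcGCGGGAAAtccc
RFC3: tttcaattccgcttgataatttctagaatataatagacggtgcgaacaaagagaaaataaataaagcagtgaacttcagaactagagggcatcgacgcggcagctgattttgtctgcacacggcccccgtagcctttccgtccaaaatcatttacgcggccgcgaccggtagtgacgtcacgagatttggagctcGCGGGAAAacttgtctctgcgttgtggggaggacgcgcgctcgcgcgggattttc
POLE4: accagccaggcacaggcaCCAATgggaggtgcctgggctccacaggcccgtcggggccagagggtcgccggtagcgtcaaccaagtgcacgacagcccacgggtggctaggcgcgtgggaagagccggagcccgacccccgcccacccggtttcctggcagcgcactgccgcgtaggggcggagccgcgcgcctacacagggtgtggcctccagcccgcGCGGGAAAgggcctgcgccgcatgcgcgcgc
GINS3: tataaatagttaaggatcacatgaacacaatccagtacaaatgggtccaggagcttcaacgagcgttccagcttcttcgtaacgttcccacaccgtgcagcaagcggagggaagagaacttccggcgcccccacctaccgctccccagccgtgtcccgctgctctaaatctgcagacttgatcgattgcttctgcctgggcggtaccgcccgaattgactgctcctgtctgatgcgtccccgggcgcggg
The E2F match reads GCGGGAAA on the gene's strand in ORC3, RFC3 and POLE4, and begins 12, 55 and 31 bases before the start. ORC3 and POLE4 also hold a CCAAT, 69 and 232 bases before the start. GINS3 has neither in this window. GMNN and ORC4, the next members by absolute log2 ratio and not shown here, have neither as well.

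Over all members, promoters were matched for 50 of 58. An E2F motif stood in 15 of the 50 (30%), beside 2.79% of all 27305 RefSeq promoter windows and 4.47% of the 10013 that belong to genes measured here at 1 CPM or more. CCAAT stood in 58% of the members, beside 35.2% of the promoters of measured genes. The GC box GGGCGG stood in 74%, beside 66.9%. The cell cycle homology element TTTGAA stood in 6% and 8.16%, with its 3 members being RRM1, TOP2A and E2F3. Of the 20 E2F matches, 2 overlapped a match to another of these motifs, and a match is a description of letters, not a bound site. The 15 members with an E2F motif had a median log2 ratio of -0.12, with 5 above 0 and 10 below. The 35 without had a median of -0.04, with 15 above 0 and 20 below. Without the TMM factors the medians were -0.0026 and 0.08. The first set ran from -0.72 to 0.75 and the second from -0.69 to 0.55.

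**Figure D2:**
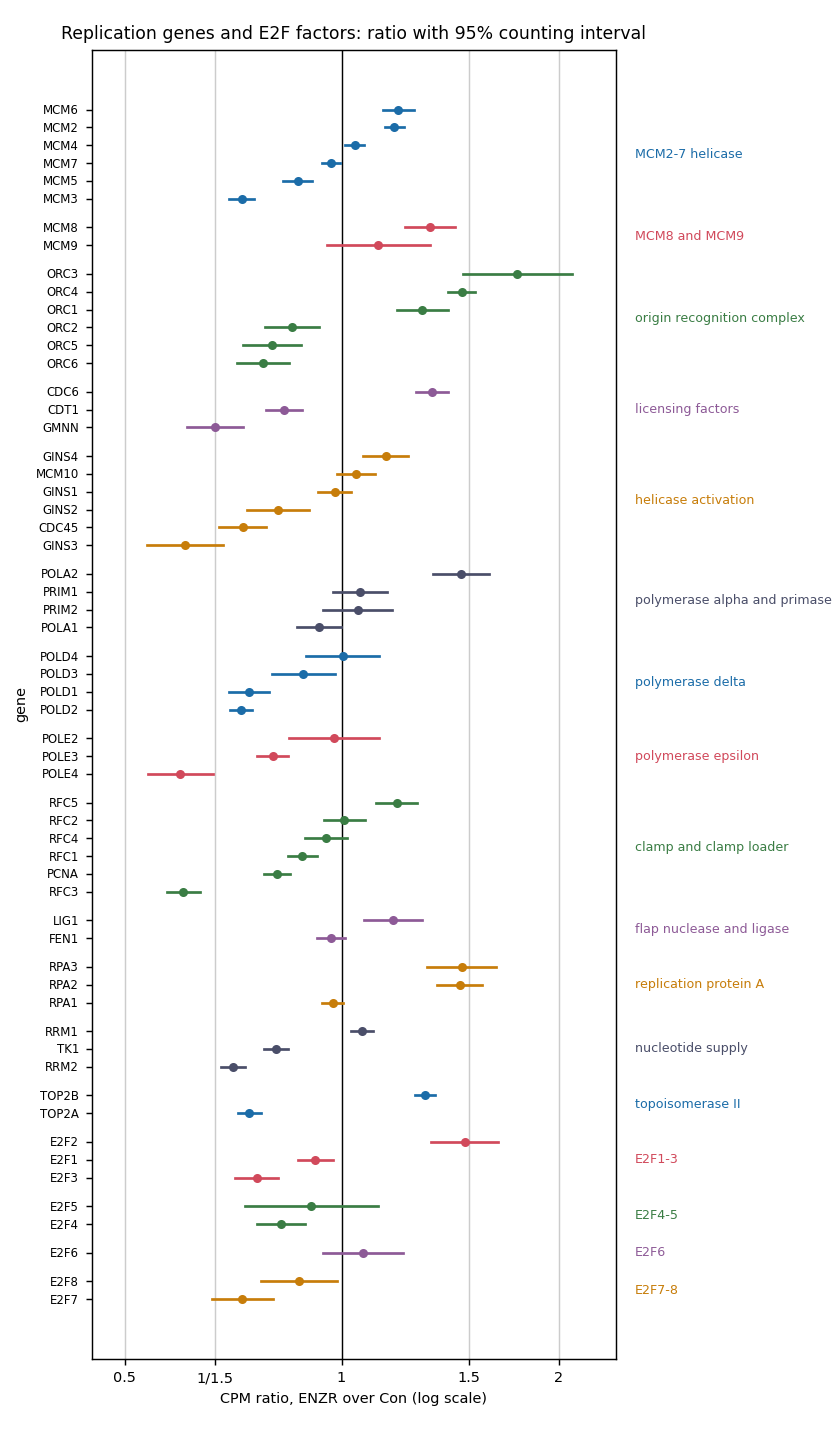
CPM ratio of ENZR over Con (log axis) for each of the 58 genes, grouped by role; the point is the ratio and the bar its exact 95% counting interval, with 1 library per group. In 9 of the 16 groups of 2 or more genes, intervals lie on both sides of the line at 1, with ORC3 the farthest to the right and POLE4 and RFC3 the farthest to the left.

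Several complexes and role groups held members on both sides. Of the 16 role groups with 2 or more genes, some of which are functional sets and not complexes, 9 had at least 1 member with an interval above 1 and at least 1 below 1, and 8 did in each of the 3 other scalings, where polymerase alpha and primase left the set. Since 34.6% of all genes had an interval above 1 and 36.6% one below, sets of unrelated genes can hold both as well. How often they would was not computed, so this count is a description and not a trait of the complexes. To compare 2 genes of a complex without any library scaling, the reads of the gene with the highest log2 ratio were divided by those of the gene with the lowest, in each library. This relative change from Con to ENZR ranged from 1.10 to 2.25 over the 16 groups, and its counting interval lay above 1 in 14. The pairs were picked as extremes, so a value above 1 is built in and the sizes are a description.

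The origin recognition complex, which marks origins and is the platform for loading, split evenly. ORC1, the ATPase subunit that is regulated through the cell cycle, stood at 47.0 CPM in Con and 60.8 in ENZR, 1.29-fold higher (1.19 to 1.40). ORC4, another subunit of the ATPase ring, stood at 152 and 223 CPM, 1.47-fold higher (1.40 to 1.53). With ORC3 they made 3 higher subunits. ORC2 was 1.17-fold lower (1.08 to 1.28), ORC5 1.25-fold lower (1.14 to 1.37) and ORC6, the subunit least firmly held in the complex, 1.29-fold lower (1.18 to 1.40). In reads, ORC3 amounted to 0.166 of ORC6 in Con and 0.374 in ENZR, a relative change of 2.25 (1.86 to 2.74), the largest of any role group. Exons of ORC4 overlap those of ACVR2A and MBD5 on the opposite strand in GENCODE 29, and the use of strand in counting is not given in the sources used here, so its count is uncertain. ACVR2A was 1.44 times its Con level (1.21 to 1.72) and MBD5 0.384 times (0.284 to 0.516).

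The licensing factors differed from each other. CDC6, the ATPase that brings the helicase to the origin, stood at 119 CPM in Con and 158 in ENZR, 1.34-fold higher (1.27 to 1.41). Both other licensing genes were lower. CDT1, its partner in loading, stood at 112 and 93.3 CPM, a ratio of 0.832 (0.784 to 0.881). GMNN, which encodes geminin, the inhibitor of CDT1, stood at 52.7 and 35.2 CPM, a ratio of 0.668 (0.610 to 0.731). CDC6 reads were 2.25 times those of GMNN in Con and 4.50 times in ENZR, a relative change of 2.00 (1.80 to 2.22).

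The 6 subunits of the MCM2-7 helicase ring had a median log2 ratio of 0.00, with 3 above 0 and 3 below. MCM2 (327 and 388 CPM) and MCM6 (127 and 153 CPM) were higher, MCM2 by a ratio of 1.18 (1.15 to 1.22) and MCM6 by one with an interval of 1.14 to 1.26. MCM3 was the lowest at 247 and 180 CPM, 1.38-fold lower (1.32 to 1.43). The others were closer to equality. MCM4 had a ratio of 1.04 (1.01 to 1.08) and MCM5 one of 0.870 (0.830 to 0.911). MCM7 had a ratio of 0.966 (0.938 to 0.995), which lies above 1 in all 3 other scalings. The sum over the 6 genes was 0.998 times as large in ENZR as in Con. MCM8 and MCM9, which form a separate helicase of DNA repair, had ratios of 1.33 (1.23 to 1.44) and 1.12 (0.954 to 1.33). Only the interval of MCM8 excludes 1 in the deposited scaling, and that of MCM9 lies above 1 without the TMM factors.

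Among the factors that activate the helicase, CDC45 and GINS3 were lower. CDC45, which rides with the helicase at the fork, stood at 70.6 CPM in Con and 51.5 in ENZR, 1.37-fold lower (1.27 to 1.48). The subunits of the GINS ring differed from each other. GINS2 was 1.22-fold lower (1.11 to 1.35), GINS1 had a ratio of 0.978 (0.929 to 1.03) whose direction turns in all 3 other scalings, and GINS4 was 1.15-fold higher (1.07 to 1.24). MCM10, which helps the helicase to start, had a ratio of 1.05 (0.987 to 1.11). GINS4 reads were 2.06 times those of GINS3 in Con and 3.92 times in ENZR, a relative change of 1.90 (1.65 to 2.19).

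**Figure D3:**
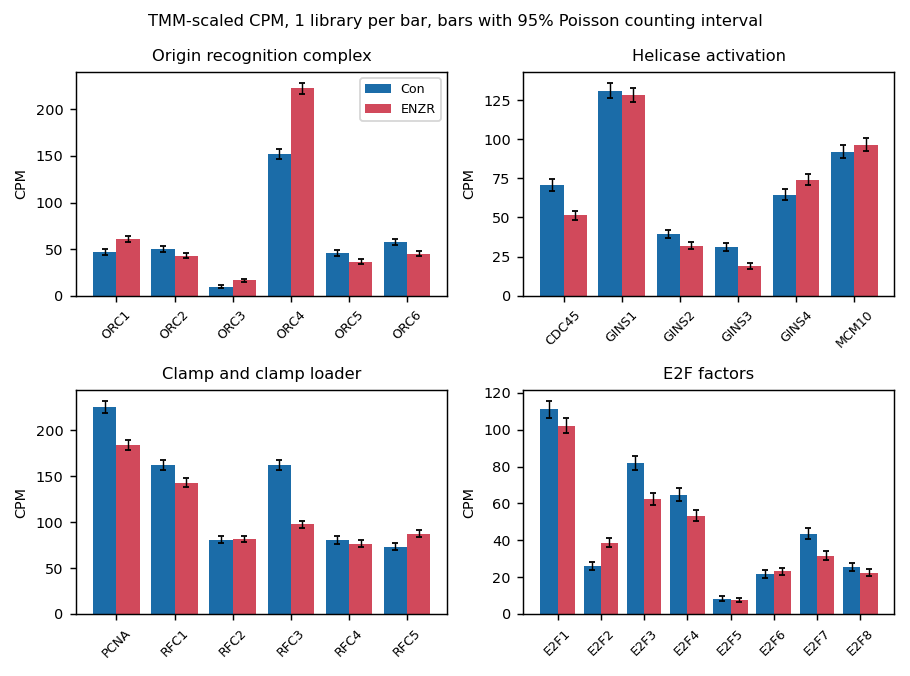
TMM-scaled CPM (vertical axes, starting at 0) of 6 origin recognition genes, 6 helicase activation genes, PCNA with the 5 clamp loader genes, and 8 E2F genes; each bar is 1 library (blue Con, red ENZR) and each error bar a 95% Poisson counting interval. ORC3 and ORC4 are higher in ENZR and GINS3 and RFC3 lower, while bars of different genes are not comparable in height because CPM is not corrected for gene length.

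The polymerase delta genes and the accessory subunits of polymerase epsilon were lower in ENZR or close to equality. For polymerase delta, which extends the lagging strand, the median log2 ratio was -0.30 with 3 of 4 genes below 0. The catalytic subunit POLD1 stood at 100.2 CPM in Con and 74.6 in ENZR, 1.34-fold lower (1.26 to 1.43), and the accessory subunit POLD2 at 324 and 235 CPM, 1.38-fold lower (1.33 to 1.43). POLD3 was 1.13-fold lower (1.02 to 1.25), and POLD4 had a ratio of 1.00 (0.894 to 1.13). For polymerase epsilon, which extends the leading strand, the median over 3 accessory subunits was -0.31. Beside POLE4, POLE3 was 1.25-fold lower (1.19 to 1.31), and POLE2 had a ratio of 0.976 (0.846 to 1.13) whose direction turns in all 3 other scalings. The catalytic subunit POLE, which the symbol rule leaves out, went the other way, at 95.7 and 118 CPM, 1.23-fold higher (1.16 to 1.30).

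Polymerase alpha and primase lay the RNA-DNA primers. POLA2, its regulatory subunit, stood at 38.8 CPM in Con and 56.7 in ENZR, 1.46-fold higher (1.34 to 1.60). The catalytic subunit POLA1 stood at 72.6 and 67.5 CPM with a ratio of 0.930 (0.867 to 0.998), which lies above 1 in 2 of the 3 other scalings, but not with equal upper quartiles. The primase subunits PRIM1 and PRIM2 had ratios of 1.06 (0.975 to 1.16) and 1.05 (0.943 to 1.18), both with 1 inside the interval. POLA2 was the one gene of the 4 with an interval above 1 in the deposited scaling. Without the TMM factors the PRIM1 and PRIM2 ratios become 1.15 and 1.14, with intervals above 1 as well.

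The clamp PCNA stood at 225 CPM in Con and 183 in ENZR, 1.23-fold lower (1.18 to 1.28). Of the clamp loader, RFC3 was lower as given above, the large subunit RFC1 was 1.13-fold lower (1.08 to 1.19) and RFC5 was 1.19-fold higher (1.12 to 1.27). RFC2 had a ratio of 1.01 (0.944 to 1.08). RFC4 had a ratio of 0.953 (0.891 to 1.02), and its direction turns in the same 2 scalings as that of POLA1. Relative to RFC3, RFC5 reads went from 0.453 to 0.895, a change of 1.98 (1.82 to 2.15). PCNA, RFC3 and RFC5 have named pseudogenes in GENCODE 29, as do 7 other members, so reads may be shared with such copies. In all, 22 members have exons that overlap those of another annotated gene, among them FEN1 with TMEM258 and GINS3 with a non-coding gene, and their counts are uncertain for that reason. Some of the overlapping genes stood at a higher CPM than the member. These were EIF4A2 for RFC4 (222 CPM in Con and 391 in ENZR) and, on the same strand, FADS2 for FEN1 (1450 and 794). GSE1 for GINS2 (361 and 187) and C8orf59 for E2F5 (58.8 and 38.6) were others. The part of such overlaps in the ratios was not tested. FEN1, the nuclease that trims Okazaki fragments, had a ratio of 0.967 (0.925 to 1.01), which turns in all 3 other scalings, and LIG1, the ligase that seals them, was 1.18-fold higher (1.07 to 1.29).

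Replication protein A coats single-stranded DNA as a trimer. RPA2 stood at 58.3 CPM in Con and 85 in ENZR, 1.46-fold higher (1.36 to 1.57). The smallest subunit RPA3 stood at 24.8 and 36.4 CPM, 1.47-fold higher (1.31 to 1.64). The large subunit RPA1 stood at 305 and 296 CPM with a ratio of 0.972 (0.940 to 1.01), whose direction turns in all 3 other scalings. The median log2 ratio of 0.53 was the highest of the 17 role groups. RPA2 has 3 named pseudogenes in GENCODE 29, and exons of RPA3 overlap those of UMAD1 on the opposite strand, so both counts are uncertain.

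The genes of nucleotide supply did not move together. RRM2, the small subunit of ribonucleotide reductase whose level follows the cell cycle, stood at 271 CPM in Con and 192 in ENZR, 1.41-fold lower (1.36 to 1.47). Its partner RRM1 stood at 264 and 282 CPM, with a ratio of 1.07 (1.03 to 1.11). TK1, the thymidine kinase of S phase, stood at 269 and 218 CPM, 1.23-fold lower (1.19 to 1.28). RRM2 has 3 named pseudogenes, so its count is uncertain.

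The topoisomerase II genes went opposite ways. TOP2A, the isoform of dividing cells, stood at 298 CPM in Con and 222 in ENZR, 1.34-fold lower (1.29 to 1.39). TOP2B, the isoform that resting cells also use, stood at 286 and 373 CPM, 1.31-fold higher (1.26 to 1.35). In reads, TOP2B amounted to 0.959 of TOP2A in Con and 1.68 times TOP2A in ENZR, a relative change of 1.75 (1.67 to 1.84). Exons of TOP2B overlap those of RARB on the opposite strand, and RARB had 72 reads in Con and 32 in ENZR, few beside the 5828 and 9222 of TOP2B.

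Of the E2F factors, in the deposited scaling E2F2 had an interval above 1, and E2F1, E2F3, E2F4, E2F7 and E2F8 had one below 1. E2F1, an activator, stood at 111 CPM in Con and 102 in ENZR, 1.09-fold lower (1.03 to 1.15), a ratio that becomes 0.998 without the TMM factors. E2F2, also an activator, stood at 26.0 and 38.5 CPM, 1.48-fold higher (1.33 to 1.65). E2F3, the third activator, stood at 81.8 and 62.4 CPM, 1.31-fold lower (1.22 to 1.41). E2F2 reads were 0.318 of those of E2F3 in Con and 0.618 in ENZR, a relative change of 1.94 (1.71 to 2.21).

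The E2F genes classed as repressors were lower or close to equality. E2F4, which acts with the pocket proteins in resting cells, stood at 64.6 CPM in Con and 53.3 in ENZR, 1.21-fold lower (1.12 to 1.31). E2F5 stood at 8.38 and 7.60 CPM with a ratio of 0.907 (0.734 to 1.12), and its 171 and 188 reads were the fewest of any member. E2F6, which represses without pocket proteins, stood at 21.6 and 23.1 CPM with a ratio of 1.07 (0.944 to 1.21). For both, the interval holds 1 in the deposited scaling. The atypical repressors, which are themselves E2F targets, were lower: E2F7 at 43.6 and 31.7 CPM, 1.37-fold (1.25 to 1.51), and E2F8 at 25.5 and 22.2 CPM, 1.15-fold (1.01 to 1.29). The E2F8 ratio becomes 0.947 without the TMM factors, with 1 inside its interval. E2F3, E2F4 and E2F6 have named pseudogenes.

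A list of 52 partners and regulators, which holds the retinoblastoma family, the E2F partner TFDP1, cyclin E, the origin-firing kinase and enzymes of nucleotide synthesis, showed a similar small median log2 ratio of -0.01, positive in all 3 other scalings (0.10 without the TMM factors). Of the 52 measured genes, 0 were 1.5-fold higher and 5 were 1.5-fold lower, none of them 2-fold, beside 13.6% and 12.9% of all genes, and without the TMM factors these counts were 1 and 2. ASF1B, a histone chaperone of dividing cells, was 1.71-fold lower (1.60 to 1.84). RNASEH2B, a subunit of the ribonuclease that removes RNA from DNA, was 1.66-fold lower (1.48 to 1.87), and TFDP1, the dimer partner of the E2F factors, 1.62-fold lower (1.53 to 1.72). The other lower genes were RBL2 (p130), a pocket protein, and CHTF8, a part of an alternative clamp loader, at 1.56-fold and 1.55-fold. The retinoblastoma gene RB1 had a ratio of 0.773 (0.717 to 0.833) and RBL1 (p107) was 1.31-fold lower (1.21 to 1.42). No gene of the list was 1.5-fold higher in the deposited scaling. DONSON, a replication fork factor, had the highest ratio of the list at 1.43 (1.22 to 1.68), followed by RBBP4, a histone-binding protein, at 1.37 (1.33 to 1.41).

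Several of the lower genes lie among genes that were lower too. The median log2 ratio of the 20 nearest measured genes on the chromosome was -0.58 around RFC3, which itself had -0.72 and lies on chromosome 13, where the 238 genes placed had a median of -0.54. Of the related genes, TFDP1, RNASEH2B and RB1 lie on chromosome 13 as well, with neighbour medians of -0.71, -0.44 and -0.60. On chromosome 16 all 5 members had a log2 ratio below 0 (ORC6, CDT1, GINS2, GINS3 and E2F4), and their neighbour medians ran from -0.42 for CDT1 to -0.30 for ORC6. The 635 genes placed on chromosome 16 had a median of -0.14, closer to equality than that of chromosome 13. POLD1 on chromosome 19, at -0.42, had the lowest neighbour median of all members, -0.62. With the neighbours' median subtracted, RFC3 was at -0.14 and GINS3 at -0.39, both inside 1.5-fold, while E2F7 was at -0.73 and passed it. Of the 28 members with an interval below 1, 4 turned to the higher side by this subtraction: POLD1 from a ratio of 0.744 to 1.14, CDT1 from 0.832 to 1.11, GINS2 from 0.817 to 1.06 and E2F4 from 0.824 to 1.10. The part of copy number or of regional expression in these values was not tested.

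Other members stood away from their neighbours. POLE4, at -0.72, had a neighbour median of 0.07, and E2F7, at -0.45, one of 0.28. TOP2A and RRM2, at -0.42 and -0.50, had neighbours at 0.09 and 0.07. On the higher side, ORC3 had 0.75 against 0.15, ORC4 0.55 against 0.01, and TOP2B 0.38 against -0.18. RPA3, at 0.53, lay among genes with a median of 0.48. Of 15 pairs of a member and a measured coding gene that starts within 1000 bases on the opposite strand, 9 had log2 ratios of the same sign and 6 of opposite sign. That is not far from an even split, and the share over all such pairs of genes was not computed. For ORC3 the partner was RARS2, a mitochondrial arginyl-tRNA synthetase, at a ratio of 1.23 (1.02 to 1.49), and for MCM8 it was TRMT6, a tRNA methyltransferase subunit, at 1.24 (1.07 to 1.45). Both pairs are of the same sign. Among the pairs of opposite sign, the higher ORC4 had MBD5 at 0.384 (0.284 to 0.516). The slightly higher MCM4 had PRKDC at 0.812 (0.794 to 0.831).

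**Figure D4:**
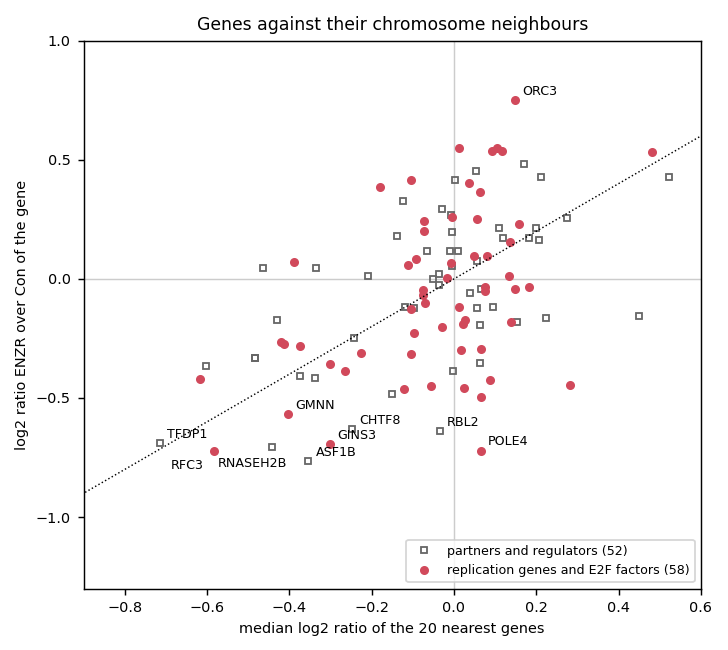
Log2 ratio of ENZR over Con of each gene (vertical axis) against the median log2 ratio of the 20 nearest measured genes on its chromosome (horizontal axis), for the 58 replication genes and E2F factors (red circles) and 52 partners and regulators (open squares), with a dotted line of equality. RFC3 and TFDP1 lie near the line at the lower left, while POLE4 and ORC3 lie far from it.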

How the data were processed

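RNA-seq of 2 libraries of C4-2B cells, 1 each of Con and ENZR, was analysed from one deposited table. Per the submitters' processing notes, Bowtie2 2.1.0, RSEM 1.2.15, edgeR and build hg19 were used, with no roles given. The deposited signal values are CPM after TMM scaling by the authors, with column sums of 1030021 and 949450. Every value was within 0.01 reads of a whole multiple of 1 step (100% in each library), so reads were recovered, with 1 read worth 0.0490 and 0.0404 CPM. RSEM shares out reads that map to several genes, so these may be rounded estimates. The table held 0 further sample columns.

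With 1 library per group, no count test of the conditions has residual degrees of freedom, and none was run. Log2 ratios used a pseudocount of 1 CPM and a minimum mean of 1 CPM; they understate changes of low genes. Exact 95% intervals came from scipy 1.17.1 under Python 3.11.15. The calculation was tested on simulated reads. Named in full were every E2F gene, members past 1.5-fold, the extremes of each role group, and related genes past 1.5-fold (at most 4 in each direction), and further members by their role; POLE, RB1, RBL1, DONSON, RBBP4 and CHTF8 were added after their values were seen. Some genes of the lists are not reported here. Members and lists were chosen with earlier results of these data known. Neighbours were ordered by RefSeq on GRCh38.p14, which placed 13448 of 13803 genes; overlaps came from GENCODE 29 exons. Both were chosen after seeing the data.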

Additional observations from a re-analysis of the deposited data

How the results depend on the processing

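No paired analysis was possible because each group has 1 library. Leaving out a replicate was not possible for the same reason. The number of members 1.5-fold higher, 1 as reported, was 0 with a pseudocount of 5 CPM and 6 under each of the 3 other scalings (no TMM factors, equal upper quartiles, totals without the 10 most abundant genes). The number of members whose interval lay above 1, 17 as reported, was 27 without the TMM factors and 27 with totals that omit the 10 most abundant genes, and the number whose interval lay below 1, 28 as reported, was 21 in both and 23 with equal upper quartiles. Of the partners and regulators, under each of these 2 settings 1 gene was 1.5-fold higher in place of 0, and 2 were 1.5-fold lower in place of 5. These settings multiply every ratio by 1.08, and equal upper quartiles by 1.04. Under the smaller pseudocount (0.5 CPM), the stricter filter (5 CPM) and without a filter, the counts and medians over the lists stayed within 1.5 times or within the interval of the median. No member past 1.5-fold changed direction in any scaling tried or with its neighbours' median subtracted, an alternative chosen after seeing the data, which turned 7 other members, 4 of them with an interval below 1.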
